A study of Homo sapiens with 4 samples.

Results

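Sites away from gene ends at which 3 active histone marks met were mapped in MHCC97L, a cell line from a human hepatocellular carcinoma. A site was an H3K27ac summit on chromosomes 1 to 22 or X that lay over 2500 bp from every start or end of a RefSeq gene of any type and had an H3K4me1 summit and an H3K4me3 summit each within 1000 bp. Of 70028 H3K27ac summits, 44001 were distal by this definition and 8219 of these carried both H3K4 marks, which is 18.7% (95% Wilson interval 18.3 to 19.05) of the distal summits and 11.7% of all. The other distal summits had H3K4me1 only (20792), H3K4me3 only (4534) or neither (10456). H3K4me1 lay within 1000 bp of 64.4% of the 12753 distal summits with H3K4me3 and of 66.5% of the 31248 without it. It was thus no more frequent where H3K4me3 was present. Chromatin immunoprecipitation sequencing (ChIP-seq) had been run once for each mark in untreated wild-type cells, alongside a library of input chromatin that was not analysed here. All values therefore come from 1 library per mark of 1 cell line, no spread between replicates is known, and no difference between classes of summits was tested.

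H3K27ac, an acetylated lysine of histone H3, marks active promoters and enhancers. H3K4me1, a single methyl group on another lysine of H3, is laid down mainly at enhancers and promoter flanks. H3K4me3, the trimethylated form of that lysine, lies mainly at promoters, above all those in CpG islands. At distal active elements H3K4me3 is usually weak or absent next to H3K4me1. The positions of the 3 marks chose the sites, so their co-location is a definition and is not a finding here. The scores and spacings come from the same libraries and are given as descriptions.

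The cells carried the promoter pair of H3K4me3 and H3K27ac, within 1000 bp of the same boundary, at the hepatocyte transcription factor genes HNF4A and CEBPA and at 2 of 4 epithelial genes (KRT8 and KRT18). Over all protein-coding genes the share with the pair was 47.4%. KRT8 and KRT18 overlap on chromosome 12, so the same summits can count for both, and CDH1 and EPCAM lacked the pair. Either end of a gene counted as a boundary, so the pair need not lie at its start. None of the 5 hepatocyte function genes checked first had the pair, and neither had any of 4 stellate cell, 4 endothelial or 4 lymphocyte markers. In the longer list of 25 hepatocyte function genes counted below, FGA, TF, OTC, TAT and UGT2B7 had it and the rest did not. In the longer list of 12 stellate cell and fibroblast genes only RGS5 had it. Among 4 myeloid markers CD68 did.

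Few of the sites lay at an annotated start inside a gene. The rule removed summits near the outer ends of genes, but a gene can have further starts within its limits, and a RefSeq table of 300-base start windows (GRCh38.p14, 250 bases before to 50 after each start, 34961 windows used) lists many of them. Of the 8219 sites, 7703 lay on chromosomes for which the table used here holds starts. Within 1000 bp of a listed start lay 182 of them (2.36%, 2.05 to 2.73), against 707 of 4322 summits with H3K4me3 only (16.4%, 15.3 to 17.5). The share was 0.775% (152 of 19619) for summits with H3K4me1 only and 1.26% for those with neither mark. With a limit of 2500 bp it was 3.87% for the sites and 19.1% for summits with H3K4me3 only. When distal was defined by the boundaries of protein-coding genes alone, the share within 1000 bp was 5.35% for the sites and 23.1% with H3K4me3 only. The median distance to the nearest listed start was 24289 bp for the sites and 20112 bp for summits with H3K4me3 only.

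In 29 cases the H3K27ac summit of a site fell inside a start window, and the 4 such windows with the highest H3K27ac scores are shown to let the base composition be seen. They are RefSeq sequences of GRCh38.p14, written 5′ to 3′ on the strand of the gene, in lower case with each CpG dinucleotide in capitals. CAPG, which encodes an actin filament capping protein, has this start 9174 bp inside the gene (chr2:85410317-85410616, minus strand). COMETT is a long noncoding RNA (lncRNA) gene beside MET with a listed start 73370 bp inside its limits (chr7:116614608-116614907, minus strand). CEACAM16-AS1 is an antisense lncRNA gene (chr19:44718601-44718900, minus strand, 6534 bp inside), and UQCC6 encodes an assembly factor of respiratory complex III (chr12:103957166-103957465, minus strand, 8492 bp inside).
CAPG: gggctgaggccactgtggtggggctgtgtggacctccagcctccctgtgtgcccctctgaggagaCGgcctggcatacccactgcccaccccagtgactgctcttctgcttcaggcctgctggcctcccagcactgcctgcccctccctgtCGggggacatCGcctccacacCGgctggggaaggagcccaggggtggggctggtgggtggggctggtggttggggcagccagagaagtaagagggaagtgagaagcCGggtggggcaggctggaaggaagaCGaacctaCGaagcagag
COMETT: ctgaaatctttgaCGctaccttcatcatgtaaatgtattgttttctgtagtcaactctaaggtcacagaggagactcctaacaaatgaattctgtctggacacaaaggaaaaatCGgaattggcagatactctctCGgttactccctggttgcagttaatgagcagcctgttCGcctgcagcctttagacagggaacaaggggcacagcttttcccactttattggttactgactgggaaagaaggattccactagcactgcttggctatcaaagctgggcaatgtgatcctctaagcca
CEACAM16-AS1: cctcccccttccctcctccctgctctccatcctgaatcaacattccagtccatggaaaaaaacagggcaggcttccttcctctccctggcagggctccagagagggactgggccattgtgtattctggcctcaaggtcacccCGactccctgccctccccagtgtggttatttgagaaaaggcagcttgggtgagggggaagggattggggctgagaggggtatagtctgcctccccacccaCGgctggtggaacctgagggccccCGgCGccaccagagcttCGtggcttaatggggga
UQCC6: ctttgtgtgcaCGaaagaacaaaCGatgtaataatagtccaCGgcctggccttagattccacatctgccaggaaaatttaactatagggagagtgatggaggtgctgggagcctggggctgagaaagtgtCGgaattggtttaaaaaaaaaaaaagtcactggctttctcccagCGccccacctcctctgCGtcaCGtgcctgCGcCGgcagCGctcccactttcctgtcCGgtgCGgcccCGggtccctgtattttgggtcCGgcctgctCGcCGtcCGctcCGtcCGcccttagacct

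At CAPG the scores, which are the authors' −log10 of a p-value or q-value for each summit, were 95.5 for H3K27ac, 5.78 for H3K4me1 and 35.5 for H3K4me3. At COMETT they were 86.1, 42.1 and 34.5 in the same order, at CEACAM16-AS1 85.8, 8.07 and 11.1, and at UQCC6 78.96, 4.97 and 79.1. The CAPG, COMETT and CEACAM16-AS1 windows held 7, 4 and 5 CpG dinucleotides. UQCC6 stood apart from these 3 with 19 CpG dinucleotides, and it had the highest H3K4me3 score of the 4. The H3K4me3 scores were taken within 1000 bp of the H3K27ac summit, and the nearest H3K4me3 summit lay outside each of the 4 windows.

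For comparison, the 3 windows with the highest H3K27ac scores among distal summits with H3K4me3 only belonged to LPP, a LIM-domain adhesion protein gene (chr3:188212462-188212761, plus strand), CANX, the gene of the chaperone calnexin (chr5:179698177-179698476, plus strand), and DYNC2I2, which encodes a dynein intermediate chain of cilia (chr9:128656798-128657097, minus strand).
LPP: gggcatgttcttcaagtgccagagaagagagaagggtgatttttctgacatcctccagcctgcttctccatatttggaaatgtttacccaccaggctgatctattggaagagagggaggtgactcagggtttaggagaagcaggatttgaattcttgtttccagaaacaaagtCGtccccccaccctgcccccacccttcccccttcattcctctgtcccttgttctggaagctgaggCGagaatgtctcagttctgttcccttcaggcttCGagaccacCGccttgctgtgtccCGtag
CANX: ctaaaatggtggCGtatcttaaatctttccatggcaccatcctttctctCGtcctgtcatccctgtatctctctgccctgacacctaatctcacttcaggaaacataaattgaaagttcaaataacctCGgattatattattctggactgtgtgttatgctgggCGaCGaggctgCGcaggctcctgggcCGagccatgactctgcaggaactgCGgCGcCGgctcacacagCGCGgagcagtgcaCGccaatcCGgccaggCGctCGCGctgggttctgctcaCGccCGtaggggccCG
DYNC2I2: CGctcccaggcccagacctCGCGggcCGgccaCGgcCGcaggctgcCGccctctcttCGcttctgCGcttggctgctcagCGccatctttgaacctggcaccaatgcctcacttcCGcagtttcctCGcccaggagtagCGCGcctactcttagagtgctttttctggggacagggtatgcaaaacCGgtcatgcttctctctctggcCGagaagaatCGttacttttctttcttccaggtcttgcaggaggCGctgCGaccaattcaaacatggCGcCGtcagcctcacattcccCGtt

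CANX held 20 and DYNC2I2 held 22 CpG dinucleotides, while LPP held 5. H3K27ac scores at these starts were 117, 108 and 92.8 for LPP, CANX and DYNC2I2, and the H3K4me3 scores were 36.7, 35.7 and 40.7. The nearest H3K4me3 summit lay inside the window at CANX and outside it at LPP and DYNC2I2.

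Over all listed starts within 500 bp of a summit, those beside the sites were poor in CpG. The 131 windows at the sites, from 115 genes, had a median CpG ratio (observed over expected from the C and G content) of 0.295, with quartiles of 0.190 and 0.504. The 602 windows at summits with H3K4me3 only, from 483 genes, had a median of 0.821, the 93 at summits with H3K4me1 only had 0.261, and all 34961 windows had 0.580. With a window of 2000 bp for both H3K4 marks the medians were 0.451 at the sites and 0.825 with H3K4me3 only. A ratio of at least 0.6 was reached by 17.6% (11.99 to 24.97) of the windows at the sites, against 79.1% (75.6 to 82.1) at summits with H3K4me3 only, 12.9% at summits with H3K4me1 only and 48.95% of all windows. Median GC content was 53.0% at the sites, 67.0% with H3K4me3 only and 58.7% in all windows. Sites at these starts had a median H3K4me3 score of 9.49 within 1000 bp of a start, against 5.99 for sites over 2500 bp from any. Their median H3K4me1 score was 5.10, against 6.30. Several windows can belong to 1 gene and overlap, so they are not independent.

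**Figure D1:**
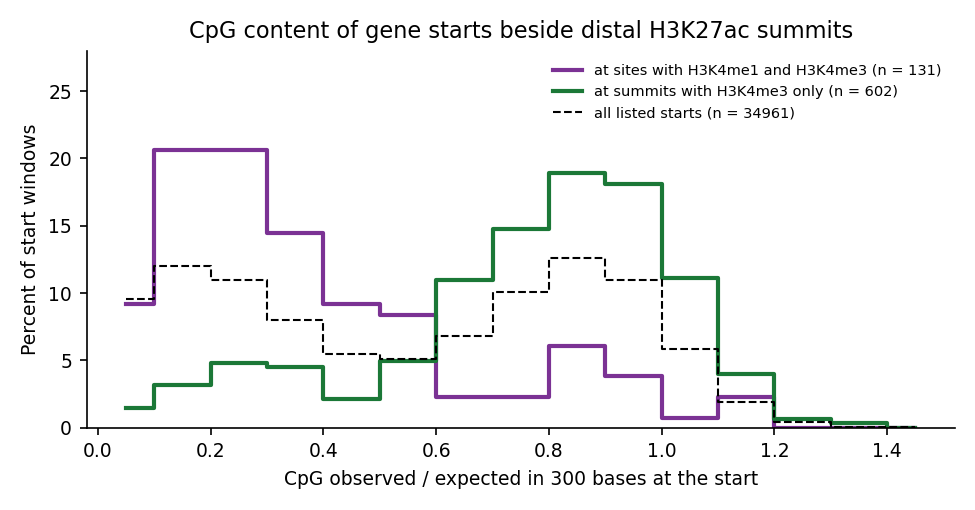
Percent of 300-base start windows (vertical axis) by CpG observed over expected in steps of 0.1 (horizontal axis), for 131 windows within 500 bp of a site with all 3 marks, 602 windows within 500 bp of a distal H3K27ac summit with H3K4me3 only, and all 34961 windows. The windows at the sites gather below 0.6 and those at summits with H3K4me3 only above it, with medians of 0.295 and 0.821.

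The start windows were searched on both strands for short motifs of factors that act in liver or epithelial cells. The AP-1 motif TGANTCA, bound by JUN and FOS family dimers, was in 28 of the 131 windows at the sites (21.4%, 15.2 to 29.2), against 7.81% (5.92 to 10.2) of those at summits with H3K4me3 only and 7.68% of all windows. It was in 25.8% (24 of 93) of the windows at summits with H3K4me1 only and in 13.2% with neither mark, so the share at the sites was close to that with H3K4me1 only. Base composition moved with this. Among windows with a CpG ratio under 0.6 the share was 24.1% (16.99 to 32.9) at the sites, 20.6% (14.5 to 28.5) at summits with H3K4me3 only and 12.1% (11.6 to 12.6) of all such windows. The GC box GGGCGG, bound by SP1, ran the other way, with 29.0% at the sites against 70.1% with H3K4me3 only, 23.7% with H3K4me1 only, 46.2% with neither and 45.0% of all windows. The TATA motif TATAAA was in 11.5% of the windows at the sites and 11.5% of all. The TEAD motif GGAATG was in 15.3% at the sites, 10.1% with H3K4me3 only, 24.7% with H3K4me1 only and 14.04% of all windows. The forkhead motif TGTTTAC was in 4 of the 131 windows, the CEBP motif TTGCNNCAA in 5 and the CTCF motif in 3. A match describes the letters of a window and is no evidence of binding, and the sequence of the sites themselves was not analysed here.

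The sites had high H3K27ac scores and low H3K4me3 scores. Their median H3K27ac score was 13.5 (quartiles 5.82 and 33.5), against 11.4 for distal summits with H3K4me3 only, 6.51 with H3K4me1 only and 5.04 with neither. Scores of 50 or more were found at 14.7% (13.97 to 15.5) of the sites, against 8.95% with H3K4me3 only, 3.91% with H3K4me1 only and 1.21% with neither. The share of distal summits that were such sites was 9.96% in the lowest quintile of H3K27ac scores and 36.8% (35.8 to 37.9) in the highest.

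**Figure D2:**
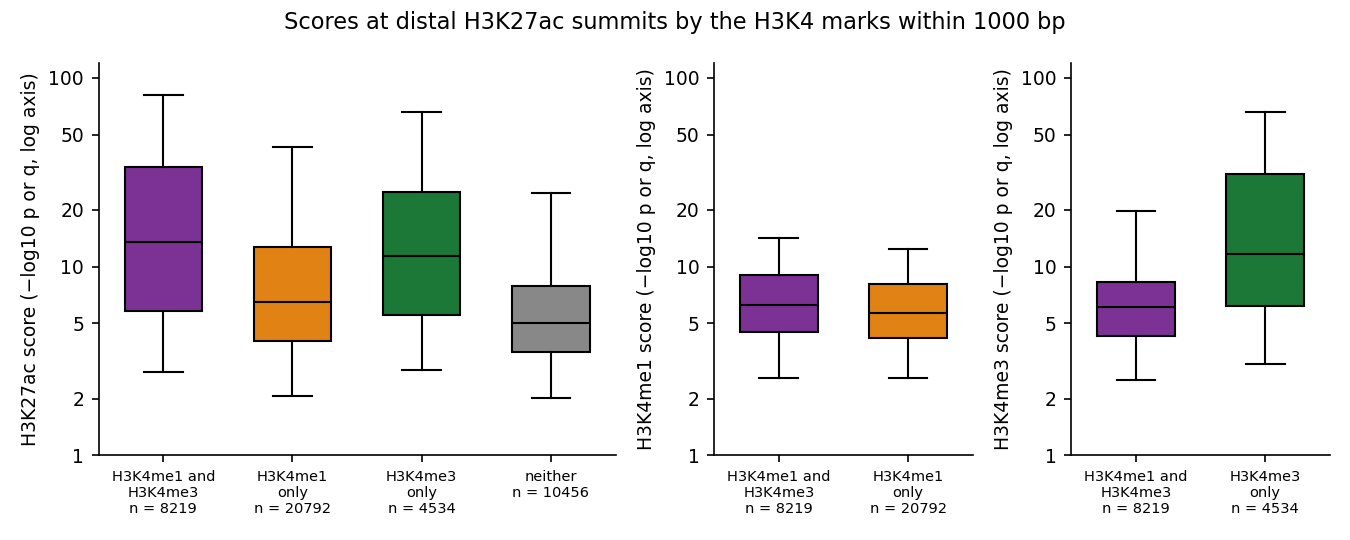
Scores (the authors' −log10 p or q, log axis) at distal H3K27ac summits grouped by which H3K4 marks lay within 1000 bp, with the highest score in that window for H3K4me1 and H3K4me3. Boxes show the quartiles and the median and whiskers the 5th and 95th percentiles over summits. The sites with both marks have the highest median for H3K27ac (13.5), while their H3K4me3 median (6.13) lies below that of summits with H3K4me3 only (11.6).

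H3K4me3 was weak at most of the sites. The median of the best H3K4me3 score within 1000 bp was 6.13, and 18.8% (17.98 to 19.7) of the sites reached 10, against a median of 11.6 and 54.9% (53.4 to 56.3) for summits with H3K4me3 only. A score of 50 was passed at 48 sites (0.584%), against 562 summits with H3K4me3 only (12.4%). H3K27ac summits within 2500 bp of a gene boundary with both H3K4 marks, of which there were 2818, had a median H3K4me3 score of 8.29 and a median H3K27ac score of 15.9. For H3K4me1 the median of the best score was 6.30 at the sites, 5.68 at distal summits with H3K4me1 only and 5.42 at those boundary summits.

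Across the 8219 sites the 3 scores were only loosely related. Spearman's rho was 0.198 between H3K27ac and H3K4me3, 0.135 between H3K27ac and H3K4me1, and −0.068 between H3K4me1 and H3K4me3, values that share the locus and its depth. In the quintile of sites with the lowest H3K4me3 scores the median H3K27ac score was 9.98 and the median H3K4me1 score 6.30. In the quintile with the highest H3K4me3 scores these medians were 23.4 and 5.68. The nearest H3K4me1 summit was farther away in that highest quintile, at a median of 395 bp, against 278 bp in the lowest.

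The highest H3K27ac score of the whole list, 194, belonged to a site between genes on chromosome 6, at position 863318. Its H3K4me1 score was 14.7 and its H3K4me3 score 29.7, and the nearest summits of these marks were 9 and 14 bp away. The nearest boundary was that of an uncharacterised lncRNA gene, LOC101927691, at 5180 bp, and EXOC2, a gene of the exocyst complex of secretion, was the nearest protein-coding gene at 170179 bp. The next sites were nearest to ZMYND8, a chromatin reader gene (190.4, within an lncRNA gene), and ALDH3A1, an aldehyde dehydrogenase gene (190.3). They were followed by the importin gene KPNA7 (185), TRIM56, a ubiquitin ligase gene of antiviral defence (179), KRT80, an epithelial keratin gene (177), NAMPT, an enzyme gene of NAD synthesis (170), and PIGL, a gene of GPI anchor synthesis (167). The H3K4me3 scores at these 8 sites ran between 4.76 (KRT80) and 29.7 (EXOC2). They lay 2717 bp (TRIM56) or more from a protein-coding boundary, and 2 of the 8, at KPNA7 and PIGL, were inside a protein-coding gene.

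The 8 sites with the highest H3K4me3 scores were mostly inside genes and partly at listed starts. The score was 116 near CBX2, a Polycomb subunit gene, where the site lay 7401 bp outside the gene with H3K27ac of 153 and H3K4me1 of 5.35. It was 108 in ADAR, an RNA editing enzyme gene, 710 bp from a listed start, and 95.8 in MLEC, an endoplasmic reticulum lectin gene, 1407 bp from one. The guanine exchange factor gene RIN2 followed at 90.2, with its nearest listed start 41837 bp away. CLN6, a lysosomal storage disease gene, had 82.6 at 151 bp from a start, ROBO1, an axon guidance receptor gene, 82.0 at 178 bp, and CYTH1, a cytohesin gene, 80.6 at 2 sites sharing 1 H3K4me3 summit. H3K4me1 scores at these 8 sites ran between 1.96 (ADAR) and 10.1 (RIN2). The H3K27ac score was as low as 6.82 at 1 of the CYTH1 sites and 7.63 at MLEC.

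The 8 sites with the highest H3K4me1 scores all lay on chromosome 7, between positions 115002660 and 116837269, a span of 1.83 Mb. The scores were 42.1 and 39.0 nearest to CAV1 and CAV2, the genes of caveolins, 39.7 and 33.0 in MET, the receptor gene for hepatocyte growth factor, and 37.5 in TES, a focal adhesion gene. They were 35.0 near CAPZA2, an actin capping subunit gene, and 34.0 at 2 sites in MDFIC that share an H3K4me1 summit. In that span 41 of 133 distal H3K27ac summits were sites (30.8%, 23.6 to 39.1), against 18.6% elsewhere. The median H3K4me1 score of those 41 sites was 22.4, against 6.30 for the 8178 sites elsewhere, their median H3K27ac score was 26.5, against 13.5, and their median H3K4me3 score was 8.16, against 6.12. Over the whole H3K4me1 list the median was 9.43 for 190 summits in the span and 4.58 for all others, while the H3K27ac list had 7.58 there and 8.40 elsewhere. The span was chosen by the H3K4me1 scores of the sites themselves.

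The rule placed an H3K4me1 and an H3K4me3 summit within 1000 bp of each site, and within that limit the 3 marks had no fixed order. The nearest H3K4me3 summit was at a median of 249 bp from the H3K27ac summit, against 187 bp for summits with H3K4me3 only. The nearest H3K4me1 summit was at a median of 302 bp, against 259 bp for summits with H3K4me1 only. Within 100 bp lay an H3K4me3 summit in 32.9% and an H3K4me1 summit in 26.3% of the sites. H3K4me3 was the nearer of the 2 marks at 53.7% (52.6 to 54.7) of the sites. The nearest H3K4me1 and H3K4me3 summits were a median of 448 bp apart, and 30.5% were within 250 bp of each other. They lay on opposite sides of the H3K27ac summit in 51.2% (50.1 to 52.3) of 8140 sites where neither coincided with it. A single H3K4me3 summit was in the window at 71.0% of the sites and a single H3K4me1 summit at 52.7%. Inside genes with a known strand, the H3K4me3 summit lay on the side of the gene start in 48.7% (47.2 to 50.2) and the H3K4me1 summit in 50.7% (49.2 to 52.2) of the cases.

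**Figure D3:**
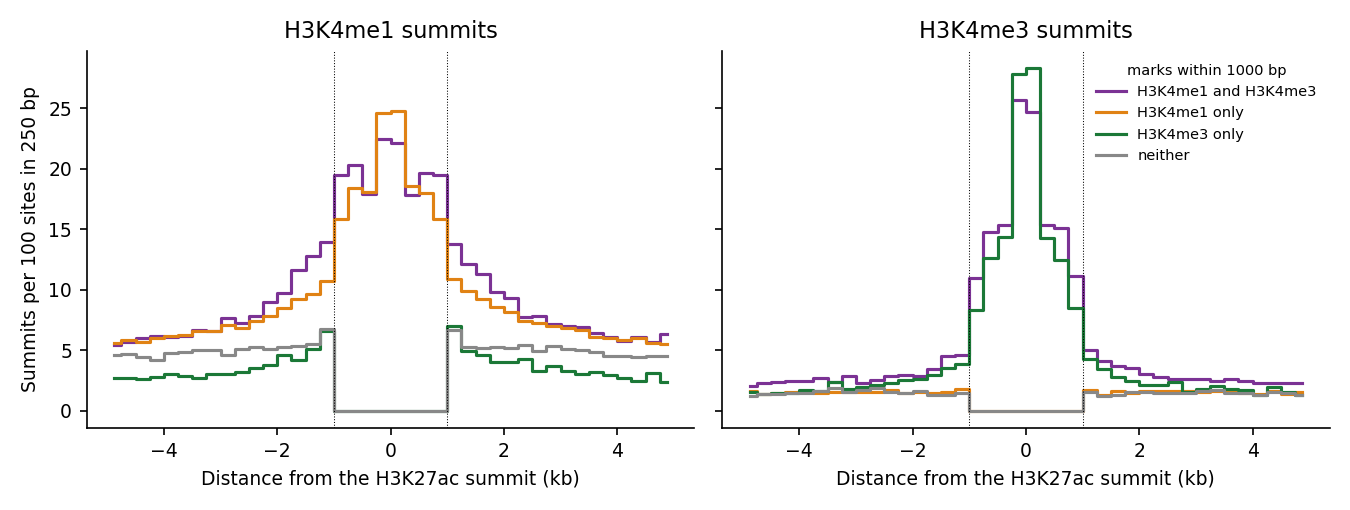
Summits of H3K4me1 (left) and H3K4me3 (right) per 100 H3K27ac summits in bins of 250 bp (vertical axis) by distance from the H3K27ac summit in kb (horizontal axis), for the 4 classes of distal summits. Dotted lines mark the 1000 bp that defined the classes. The curves outside them count the same summit lists, so they are not independent of the rule either. Where 2 classes are both at 0 the lines coincide.

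Beyond the window that defined them, the sites had more summits of both H3K4 marks around them than the other classes. These counts use the same summit lists that set the classes, and neighbouring sites can count the same summit. They are therefore not independent of the rule and are given as descriptions. Between 1000 and 2000 bp away there were 47.6 H3K4me1 summits per 100 sites and kb, against 38.3 for summits with H3K4me1 only, 20.5 with H3K4me3 only and 22.6 with neither. The H3K4me3 density in that ring was 15.9 at the sites, against 12.96 with H3K4me3 only, 6.33 with H3K4me1 only and 5.68 with neither. Between 4000 and 5000 bp H3K4me1 stood at 23.6 at the sites and 23.1 with H3K4me1 only, and H3K4me3 at 9.19 at the sites and 5.98 with H3K4me3 only.

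The sites lay mainly inside protein-coding genes, towards their starts. Of the 8219, 65.4% (64.4 to 66.4) were inside a protein-coding gene, 8.99% inside an lncRNA gene and not a coding one, and 24.6% between genes. Inside protein-coding genes lay 59.9% of summits with H3K4me3 only, 54.2% with H3K4me1 only and 46.1% with neither. In host genes with a known strand the first quintile of the gene held 26.4% (25.1 to 27.7) and the second 28.4% of 4370 sites, and the last quintile 9.45%. For summits with H3K4me3 only the first and last quintiles held 27.9% and 9.89%, and for those with H3K4me1 only 18.3% and 16.6%. Host genes of the sites had a median length of 131883 bp, against 122995 bp with H3K4me3 only and 131993 bp with H3K4me1 only.

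The median distance to the nearest boundary of any gene was 12763 bp, with quartiles of 6246 and 27316.5 bp, and to the nearest protein-coding boundary 27259 bp. Over 50000 bp from every boundary lay 878 sites (10.7%) and over 100000 bp 153 (1.86%), against 2.87% of summits with H3K4me3 only, 1.75% with H3K4me1 only and 3.82% with neither mark. The 4 most remote sites were a pair in the long gene AGBL1, a carboxypeptidase gene, at 303508 and 302965 bp, and 2 sites on chromosome 8 beside the collagen gene COL22A1, at 301732 and 283479 bp. The nearest boundary belonged to a protein-coding gene at 44.5% of the sites and to an lncRNA gene at 31.5%. For summits with H3K4me1 only these shares were 39.7% and 37.3%.

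The protein-coding gene whose start or end lay nearest was taken as the assigned gene of a site, which says nothing of the gene it acts on. The sites fell to 3266 of 19970 protein-coding genes (16.4%), 1368 of them with a single site and 62 with 10 or more, which together took 885 sites. The assigned gene was the host gene for 58.7% of the sites. It carried the pair of H3K4me3 and H3K27ac at its start or its end for 59.7% (58.6 to 60.7) of the sites. This compares with 49.96% with H3K4me3 only, 55.0% with H3K4me1 only and 49.99% with neither. Of all protein-coding genes 47.4% have the pair, but that figure counts each gene once.

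The 20 genes with most sites took 418 of them, 315 of which were inside the gene, and were long, with a median of 339.7 kb, against 24.2 kb for all protein-coding genes. TRIO, which encodes a guanine exchange factor of small GTPases, led with 32 sites, all inside the gene, among 48 distal H3K27ac summits assigned to it. H3K27ac scores of the TRIO sites ran between 1.44 and 44.8 with a median of 7.53, and their H3K4me3 scores between 2.31 and 15.2 with a median of 5.30. EXT1, MYC and SLC39A11 followed with 28 sites each. EXT1, a heparan sulfate polymerase gene, had 26 of them inside the gene, with H3K4me1 scores up to 21.2 and a median of 10.9. MYC, the oncogene, had its sites among 195 distal H3K27ac summits, a share of 14.4%, at distances between 17914 and 772194 bp, and none lay in the gene. SLC39A11, a zinc transporter gene beside the gene desert that reaches to SOX9, had 6 of its sites inside the gene and a share of 28.6% of 98 distal summits.

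**Figure D4:**
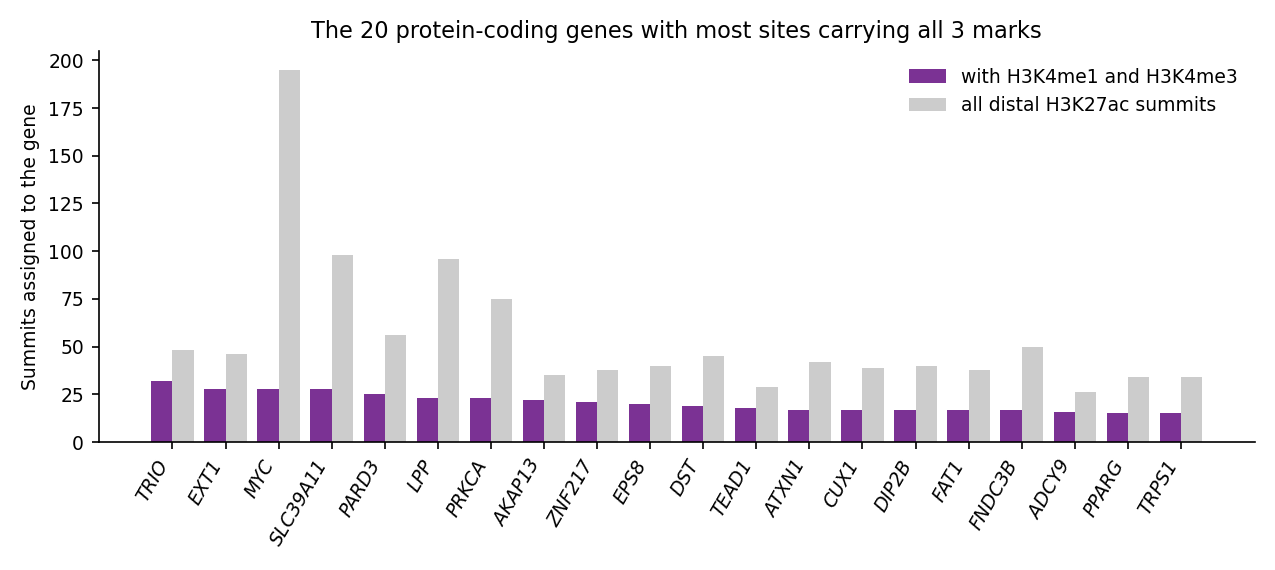
Number of distal H3K27ac summits assigned to each of the 20 protein-coding genes with most sites, for sites with H3K4me1 and H3K4me3 (left bar of each pair) and for all distal H3K27ac summits (right bar). TRIO has 32 of 48 and MYC 28 of 195.

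The remaining genes of the 20 had between 15 and 25 sites each. PARD3, a polarity scaffold gene, had 25 sites, LPP 23, and AKAP13, which anchors protein kinase A, 22. EPS8, an actin regulator gene, had 20 sites with H3K27ac up to 114, DST, the cytolinker dystonin, 19, and the atypical cadherin gene FAT1 17. The transcription factor genes among the 20 were MYC, ZNF217 (21 sites, 5 in the gene), TEAD1 (18), CUX1 (17), PPARG (15) and TRPS1 (15). TEAD1, a DNA-binding partner of YAP, had all 18 inside the gene among 29 distal summits, with H3K27ac scores between 2.06 and 88.7, H3K4me1 between 2.91 and 15.97 and H3K4me3 between 3.47 and 33.9. The kinase gene PRKCA had 23 sites, the genes ATXN1, DIP2B and FNDC3B 17 each, and ADCY9, an adenylyl cyclase gene, 16. The promoter pair was found at 13 of the 20, and was missed at EXT1, PARD3, PRKCA, ATXN1, FAT1, PPARG and TRPS1. When the nearest boundary of a gene of any type was used, TRIO kept 27 sites, CUX1 and PPARG 15 each, and MYC, SLC39A11 and LPP had 1, 0 and 0, the rest being nearer to genes of other types.

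The share of distal summits that were sites varied widely between these genes. It was 66.7% at TRIO, 62.9% at AKAP13, 62.1% at TEAD1, 61.5% at ADCY9 and 60.9% at EXT1, against 18.7% over all distal summits. LPP had 23.96% of 96, and MYC was the gene of the 20 with the lowest share.

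Lists of genes tied to liver, liver cancer and cell adhesion were counted beside the 16.4% of all protein-coding genes with a site. Genes with a site were longer (median 57.7 kb, against 24.2 kb for all protein-coding genes), so median lengths are given with the lists. A few genes are in 2 lists. Some genes named below without a site had no distal H3K27ac summit of any class assigned, so no site was possible there. Among them are ZYX, CLDN7, JUND, APC, TGFB1, TGFBR1, ERBB2, ERBB3, ARNT, KMT2A, KMT2B, TERT, COL1A1, CD68, CD3D and CD3E. Of 20 liver transcription factor genes 11 had a site (55%, 34.2 to 74.2, median length 35.8 kb). FOXA2, a pioneer factor gene of endoderm, had 10 of the 29 sites of the list, 31399 bp or farther from the gene, with H3K27ac up to 119.5 and H3K4me3 up to 26.4. FOXA1, another forkhead factor gene, had none, with 2 other distal H3K27ac summits. Of 25 hepatocyte function genes 6 had one, FGG, a fibrinogen gene, with 4, while TTR and APOA1, which encode plasma transport proteins, had none and no distal H3K27ac at all. Of 19 fetal liver and progenitor genes 4 had one, AXIN2, a Wnt target gene, with 3, while AFP and IGF2 had none.

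Among adhesion and cytoskeleton lists the counts were 13 of 20 actin and focal adhesion genes (median length 106 kb), 12 of 20 epithelial genes (37.0 kb) and 6 of 20 mesenchymal and matrix genes (26.8 kb). LPP led the first list, with ZYX and TLN1 at 0. TJP1, a tight junction scaffold gene, led the second with 7 sites, and CLDN7 and PKP2 had none. FN1, the fibronectin gene, led the third with 11, and VIM and ZEB1 had none. AP-1 factor genes, whose median length was 10.4 kb, had sites in 4 of 14 cases, with 2 at BATF and none at JUN, which had 18 other distal H3K27ac summits, or JUND.

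Among signalling lists, sites were assigned to 12 of 20 Wnt genes, 10 of 19 YAP and TEAD genes, 9 of 20 TGF-beta and BMP genes and 9 of 20 receptor tyrosine kinase genes. TCF7L2, a transcription factor gene of the Wnt pathway, had 10 sites, and CTNNB1 and APC had none. TEAD1 led its list, and its relatives TEAD2 and TEAD3 had no distal H3K27ac. SMAD3, a signal transducer of TGF-beta, had 12 sites among 44 distal summits, with a median H3K27ac score of 36.3, a highest H3K27ac score of 130 and a highest H3K4me3 score of 55.2. TGFB1 and TGFBR1 had none. IGF1R, a growth factor receptor gene, had 9 sites with a median H3K27ac score of 32.3, and ERBB2 and ERBB3 had none. The 5 lists with median lengths over 80 kb, of actin regulators, Wnt, YAP and TEAD, TGF-beta and chromatin genes, had sites in 65%, 60%, 52.6%, 45% and 30% of their members.

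Of 20 lipid and cholesterol genes 10 had a site, and 40 of the 103 distal H3K27ac summits of the list were sites (38.8%). This was the highest such share of the 20 lists, against 18.7% over all distal summits, and much of it came from 2 genes. PPARG, a nuclear receptor gene of fat storage, had 15 of the 40 among 34 distal summits. ACSL3, named after its values were seen, had 8 among 14. No distal H3K27ac summit of any class was assigned to HMGCS1, which encodes an enzyme of the mevalonate pathway. Of 20 hypoxia and glycolysis genes 11 had one, with 8 at the hexokinase gene HK1, where H3K4me3 reached 61.3, and none at HIF1A or ARNT. Of 20 chromatin modifier genes 6 had one, with 8 at the H3K27 demethylase gene KDM6A, and KMT2A and KMT2B had none. Of 20 liver cancer driver genes 3 had one (15%, 5.24 to 36.0). MYC held 28 of their 37 sites, and TERT had none.

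For markers of other cell types the share of genes with a site was near the 16.4% of all protein-coding genes. It was 2 of 12 genes (16.7%, 4.70 to 44.8) in each of the stellate cell and fibroblast, endothelial, myeloid and lymphocyte lists, with 2, 3, 3 and 2 sites in all. COL1A2, a collagen gene, had 1, at 93500 bp, PECAM1 2, VSIG4 2 and CD7 1. COL1A1, COL3A1, VWF, CDH5, CD14, CD68, CD3D and CD3E had none. Of 14 neuron genes 3 had one (21.4%), with 6 at SYT1, a synaptic vesicle gene, and none at SNAP25 or MAP2. Of the distal H3K27ac summits assigned to these lists, sites made up 20% for stellate cell and fibroblast, 5.45% for endothelial, 14.3% for myeloid, 16.7% for lymphocyte and 21.4% for neuron genes, against 18.7% over all distal summits.

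The sites clustered, but much of this was neighbouring summits of 1 locus. Merging sites within 1000 bp of each other left 6484 loci, and the sites drew on 7299 different H3K4me1 and 6742 different H3K4me3 summits. Stitching sites closer than 12000 bp gave 4916 clusters. Alone were 2841 sites (34.6%), 2796 were in pairs (34.0%), and 2582 (31.4%, 30.4 to 32.4) in 677 clusters of 3 or more. Counting 1 site per locus lowered that last share to 16.3%. Another distal H3K27ac summit of any class lay closer than 12000 bp to 88.9% of the sites, against 88.0% with H3K4me1 only, 70.6% with H3K4me3 only and 81.4% with neither. The share of distal summits that were sites was 13.7% for summits alone, 20.7% in groups of 2 to 4, 19.3% in groups of 5 to 9 and 17.8% in groups of 10 or more.

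The largest cluster lay inside TRIO (chr5:14157627-14227209 on hg38) and held 27 sites among 31 distal H3K27ac summits over 69583 bp. Its scores were modest, between 1.44 and 44.8 for H3K27ac (median 6.51), 3.01 and 11.1 for H3K4me1 and 2.31 and 15.2 for H3K4me3. It was dense in H3K4me1, with 57 summits, and in H3K4me3, with 37. The second, in EXT1, held 18 sites among 24 distal summits over 52412 bp, with a median H3K4me1 score of 13.2.

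**Figure D5:**
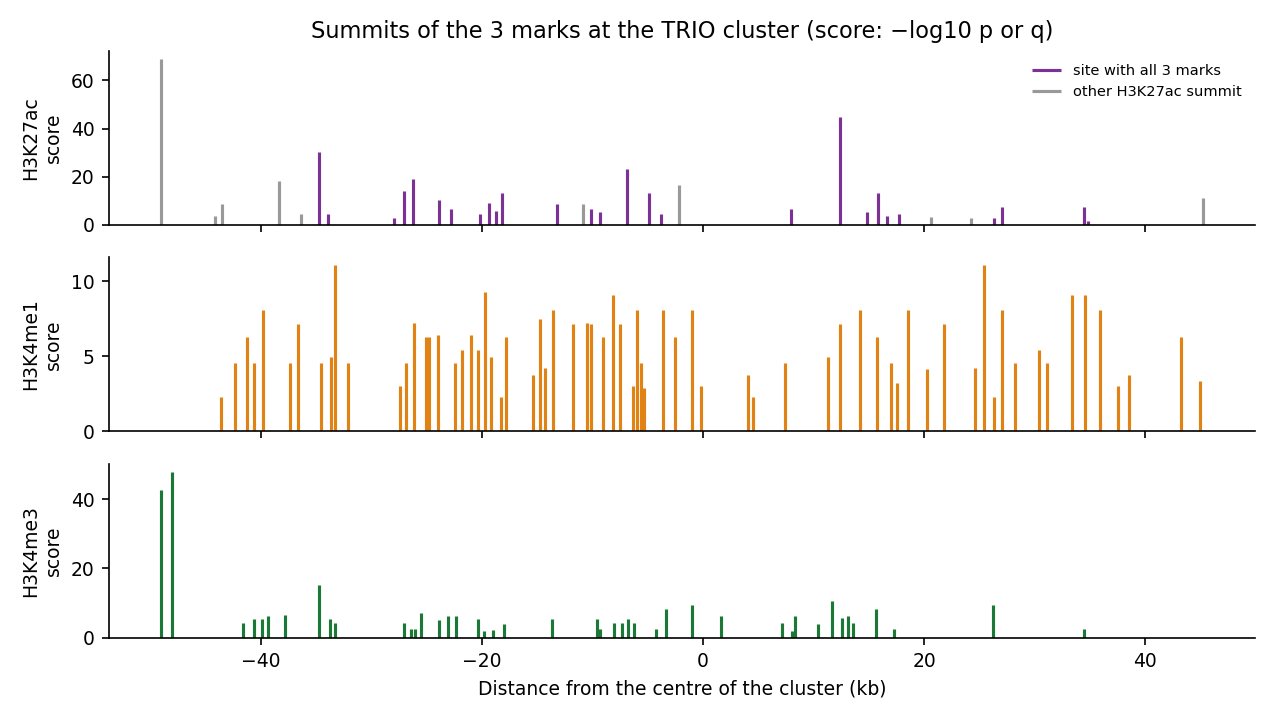
Score (−log10 p or q, vertical axes) of each summit of H3K27ac, H3K4me1 and H3K4me3 by distance from the centre of the largest cluster in kb (horizontal axis), inside TRIO. In the top panel the 27 sites with all 3 marks of the cluster are drawn apart from the other H3K27ac summits, some of which lie beyond its ends, and the highest of the 27 reaches 44.8.

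The 4 next clusters were in EPS8 (12 sites over 49884 bp, H3K27ac up to 99.6), SPRED2, an inhibitor gene of RAS signalling (12 over 33538 bp), FMNL2, a formin gene (11 over 40556 bp), and FN1 (11 over 10514 bp). The FN1 cluster was the most compact of the 6, with all 11 distal H3K27ac summits of its span being sites at a median spacing of 999.5 bp. Its scores stayed low for every mark, at most 14.3 for H3K27ac, 8.11 for H3K4me1 and 6.28 for H3K4me3.

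By chromosome, the share of distal H3K27ac summits that were sites was highest on chromosome 12 (592 of 2320, 25.5%, 23.8 to 27.3), followed by chromosomes 17 (23.7%) and 7 (23.6%). It was 8.32% (44 of 529, 6.25 to 10.98) on chromosome 21 and 10.7% on chromosome 14. On chromosome 13 there was 1 site among 546 distal summits (0.183%, 0.032 to 1.03). That chromosome held 98 H3K4me1 and 596 H3K4me3 summits, and 9.16% of its distal H3K27ac summits had H3K4me1 and 15.02% had H3K4me3. On chromosome 12 the shares with H3K4me1 and H3K4me3 were 72.5% and 34.1%.

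The sites nearest to the limit of 2500 bp lay at 2502 bp from GRK6, with scores of 10.96 for H3K27ac and 41.0 for H3K4me3, and at 2504 bp from ZNF740 (9.29 and 13.3) and FTX (63.9 and 12.8). Just short of it, at 2498 bp from LINC01517 and SBK2 and 2497 bp from LOC105369917, H3K27ac scores were 59.0, 11.6 and 24.5. With H3K4me1 at exactly 1000 bp, 3 sites nearest to CTH, LOC124902508 and SLC39A11 had H3K27ac scores of 4.57, 35.8 and 2.77, and at 1001 or 1002 bp, summits at SEMA4B, MYC and NUMBL with 134, 17.1 and 41.5 were left out. With H3K4me3 at exactly 1000 bp, sites at SH2D6, TENT5A and SARAF had 76.4, 11.9 and 44.8, and at 1001 bp, NAV3, RHPN2 and PDLIM5 with 3.62, 10.5 and 3.67 were left out.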

How the data were processed

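The submitters' processing notes name hg38 as the build and MACS2, Bowtie, Picard and deepTools as tools, without versions, settings or control. For every mark the authors deposited a list of summit positions, each with a score that is the −log10 of a p-value or q-value. Which of the 2 it is, and the read depth, are not given, so precision beyond counting error is unknown. Scores rise with read depth, so their size is not set side by side between marks. Summits on chromosome Y and unplaced contigs (273 H3K27ac, 61 H3K4me1 and 185 H3K4me3) were left out.

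Gene limits and start windows came from RefSeq on GRCh38.p14, whose chromosome coordinates equal those of hg38. There were 59094 genes of all types. Distances were taken between summit positions. The best score of a mark within 1000 bp was used as its score. Ties for the nearest gene went to the lower position. The start table used here holds none on chromosome 8. Base composition and motifs were taken from its windows, because no genome of this build was used. The 95% Wilson intervals cover counting error alone. The 20 gene lists (359 of 360 entries matched), the sites and the rule for named genes were chosen with earlier results of these data known. Named were the 20 genes with most sites, the 8 sites with the highest score of each mark, the 6 largest clusters, the 4 most remote sites, and in each list the gene with most sites and the first 2 members without one. A few items that this rule or the searches cover are not reported here. The GC box and TATA motifs, the chromosome 7 span and the 2 settings named as such in the closing section were added after the data were seen. Python 3.11.15, pandas 2.3.3, scipy 1.17.1 and statsmodels 0.14.6 were used. The search for sites was checked on simulated positions.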

Additional observations from a re-analysis of the deposited data

Results flagged for a closer look

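Outside the chromosomes analysed, on chromosome Y and unplaced contigs, 10 of 273 H3K27ac summits (3.66%, 95% Wilson interval 2.00 to 6.61) had an H3K4me1 and an H3K4me3 summit within 1000 bp. They stood out because no comparison of the report used them. No gene limits were applied there, so they are not called distal.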

How the results depend on the processing

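No paired analysis was possible because each mark has 1 library. As reported there were 8219 sites (18.7% of distal summits) in 4916 clusters, with 31.4% of sites in clusters of 3 or more, 65.4% inside protein-coding genes, and median scores of 13.5 (H3K27ac), 6.13 (H3K4me3) and 6.30 (H3K4me1). A window of 500 bp gave 4107 sites (9.33%), 3185 clusters, 13.9% in clusters of 3 or more and medians of 14.3, 5.56 and 5.42 in that order of marks. A window of 2000 bp gave 27.96%, 51.6% in such clusters and medians of 9.98 for H3K27ac and 7.19 for H3K4me1. Keeping only summits that score 5 or more gave 2922 sites (10.1%), 2220 clusters, 13.3% in clusters of 3 or more and medians of 23.7, 7.64 and 8.07. A limit of 1000 bp from boundaries gave 18.3%, 32.6% in clusters and 63.6% inside genes, and a limit of 5000 bp 67.4% inside genes. With boundaries of protein-coding genes only, 33.0% were in clusters and 61.6% inside genes. Stitching at 5000 or 20000 bp put 21.9% or 39.1% in clusters. Of the 2 settings chosen after seeing the data, counting 1 site per locus gave 16.3% in clusters and a median H3K27ac score of 17.4, and leaving out sites within 2500 bp of a listed start gave 7921 sites, 4760 clusters, 64.5% inside genes and a median H3K4me3 score of 5.99. These and the 5 other values of that setting stayed within 1.5 times the reported count or inside the reported value's 95% interval. The share of sites within 1000 bp of a listed start ran between 1.86% (window of 500 bp) and 5.35% (protein-coding boundaries only), and the median CpG ratio of their start windows between 0.252 (500 bp) and 0.451 (2000 bp). The cause of these shifts was not tested. With the nearest boundary of any gene, the count moved by over 1.5 times for 17 of the 20 genes and less for TRIO, CUX1 and PPARG. Depth is unknown, so a mark with no summit cannot be called absent.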

Other observations

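Among the 396 protein-coding genes with 20 or more assigned distal H3K27ac summits, the share that were sites with all 3 marks ran between 0 and 75%, with a median of 14.7%. The genes that follow were chosen after their values were seen. USP9X, a deubiquitinase gene on chromosome X, had 15 sites among 20 distal summits, 3 of them inside the gene, with H3K27ac scores between 1.44 and 62.2. TNS1, which encodes the adhesion protein tensin, had 0 among 32, TIMP3, a metalloproteinase inhibitor gene, 0 among 27, and SYNPO2, an actin-binding protein gene, 0 among 25. TGFB2, the gene of a TGF-beta ligand, had 8 sites among 69 distal summits, with a median H3K27ac score of 18.01.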
